A study of Homo sapiens with 6 samples.

Results

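The transcripts of 10 genes at the core of the NF-κB pathway were compared between control and IKZF1-edited human T-ALL cells. The 10 genes are the 5 subunits NFKB1, NFKB2, RELA, RELB and REL, the 3 inhibitors NFKBIA, NFKBIB and NFKBIE, the feedback deubiquitinase TNFAIP3 and the kinase IKBKB. They were taken by gene symbol from tables that hold 60640 gene identifiers each, and all 10 were found. The cells are MOLT-4, an established line of human T-ALL, the acute lymphoblastic leukemia of the T-cell lineage. The series has 3 libraries of wild type cells, labelled as the control of a CRISPR knockout, and 3 libraries labelled IK-KO, made after CRISPR-Cas targeting of IKZF1, which encodes the DNA-binding protein IKAROS. Cells of both groups were grown in RPMI1640 with serum, and the labels name no drug. The edited and control cells were bought as such, the labels name no clone, and clonal differences between the 2 lines cannot be told apart from effects of the edit.

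NF-κB proteins act as dimers of the Rel family. RELA, RELB and REL carry a transactivation domain, whereas NFKB1 and NFKB2 are made as the precursors p105 and p100 and give the DNA-binding partners p50 and p52. In resting cells the IκB proteins hold the dimers in the cytoplasm. Signals from antigen, cytokine and Toll-like receptors activate the IKK kinases, IκB is phosphorylated and degraded, and the dimers enter the nucleus, where they also induce their own inhibitors. In the thymus and in T-ALL this pathway is known for its part in survival signalling.

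The depth of the libraries and the identity of the cells were examined first. Values are FPKM, fragments scaled by transcript length and by the mapped fragments of the library, and no counts are given. FPKM summed to between 699352 and 738051 per library. Relative depth, judged from the confidence bounds of 552 genes with a single annotated transcript, ran from 0.899 to 1.10 of the mean, and the 2 groups overlapped. All 13 T-cell markers examined had values above 0 in every library. Their summed FPKM was 1675 to 1747 in wild type and 1552 to 1727 in the libraries labelled IK-KO. Within that list 4 markers were higher, 7 were lower and 2, CD3E and LCK, were not called. The share called was 84.6%, beside 19.9% of all tested genes, so the sum hides changes of single markers. Mean RAG1 fell from 58.3 to 16.6 FPKM and CD4 from 2.76 to 0.384 FPKM, while CD1A rose from 51.0 to 93.4 FPKM. In the libraries labelled IK-KO the lower confidence bound of CD4 was 0. Of the B-cell, myeloid, erythroid and stromal markers, none exceeded 1.83 FPKM in any library, and no list summed to more than 3.62 FPKM. IKZF1 RNA was 134, 124 and 105 FPKM in wild type and 207, 260 and 207 FPKM in the other group (limma log2 difference 0.89, SE 0.12, adjusted p 0.00295). The targeted transcript was thus higher, not lower, and the FPKM tables do not show the edit. By the study's methods the knockout was checked by PCR and by western blot for IKAROS protein, neither of which RNA levels measure. The group is therefore called the libraries labelled IK-KO, shortened to IK-KO, and every direction given rests on that label.

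Because NF-κB genes are known to be controlled by NF-κB itself, the sequences before their start sites are shown beside the expression data. RefSeq promoter windows (GRCh38.p14, 250 bases before to 50 after each start) were matched by symbol for 7 of the 10 genes, in 12 windows. Both strands were searched for the κB consensus of NF-κB and for TGGGAA, which holds a core that IKAROS-type zinc fingers are known to bind. The κB consensus occurred in 7 of the 12 windows and in 6 of the 7 genes, all but RELA, whereas 11.3% of all 35116 windows and 13.3% of all 27305 symbols held it. TGGGAA occurred in 5 of the 12 windows and in 4 of the 7 genes, beside 24.0% of all windows and 28.1% of symbols. A match describes letters only and is not a bound site.

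The 2 longer stretches below were chosen for TNFAIP3, which changed most among the 10 genes, and for NFKBIA, the classical feedback inhibitor. The shorter sites give the κB match of NFKB1, the other gene whose level changed, and that of REL for comparison. For NFKB2 and NFKBIB, which hold further matches, a single site is shown. All are printed 5′ to 3′ on the strand of the gene, with κB matches on either strand in capitals. 
TNFAIP3, chr6:137867064-137867213, plus strand, from −195 to −46: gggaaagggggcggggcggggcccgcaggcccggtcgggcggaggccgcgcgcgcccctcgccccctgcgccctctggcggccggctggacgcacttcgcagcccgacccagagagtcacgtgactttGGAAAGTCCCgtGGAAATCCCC
NFKBIA, chr14:35404750-35404899, minus strand, from −150 to −1: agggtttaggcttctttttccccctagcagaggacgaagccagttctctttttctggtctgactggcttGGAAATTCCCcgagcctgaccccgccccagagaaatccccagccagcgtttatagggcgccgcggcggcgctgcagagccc
NFKB1, chr4:102501300-102501329, plus strand: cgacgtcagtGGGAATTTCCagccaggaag
REL, chr2:60881518-60881546, plus strand: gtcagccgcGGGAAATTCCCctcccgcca
NFKB2, chr10:102394462-102394490, plus strand: aaacgtcatGGGAATTCCCCcctccgggg
NFKBIB, chr19:38899932-38899960, plus strand: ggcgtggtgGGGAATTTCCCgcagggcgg

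TNFAIP3 held a pair of κB matches separated by a gap of a few bases, at −67 and −55 from the start site. NFKB1 held 1 match at −49. Further matches, not printed above, lay at −78 in the window of the printed NFKB2 site and 38 bases after the start in NFKBIB. Those at −176 and −21 in NFKB2 lay in another window downstream (chr10:102395455-102395754) and are counted from the start site of that window. The TGGGAA of NFKB1, at −50, shares its letters with that κB match, and the same overlap was present in NFKB2, where TGGGAA at −108 runs into the κB match at −107. The NFKB1, REL, NFKB2 and NFKBIB sites shown, taken with their flanks, overlap annotated GENCODE exons. In NFKBIB the κB match itself, at −28, does not. The TNFAIP3 and NFKBIA stretches were ended before the first annotated exon base or the start site. They therefore hold no exon bases by construction, and the genes cannot be compared in this respect. RELA had TGGGAA at −170 and −136 and no κB match. The map of matches shows that those of REL, NFKB1, TNFAIP3 and NFKBIA lie within 100 bases of the start.

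**Figure D1:**
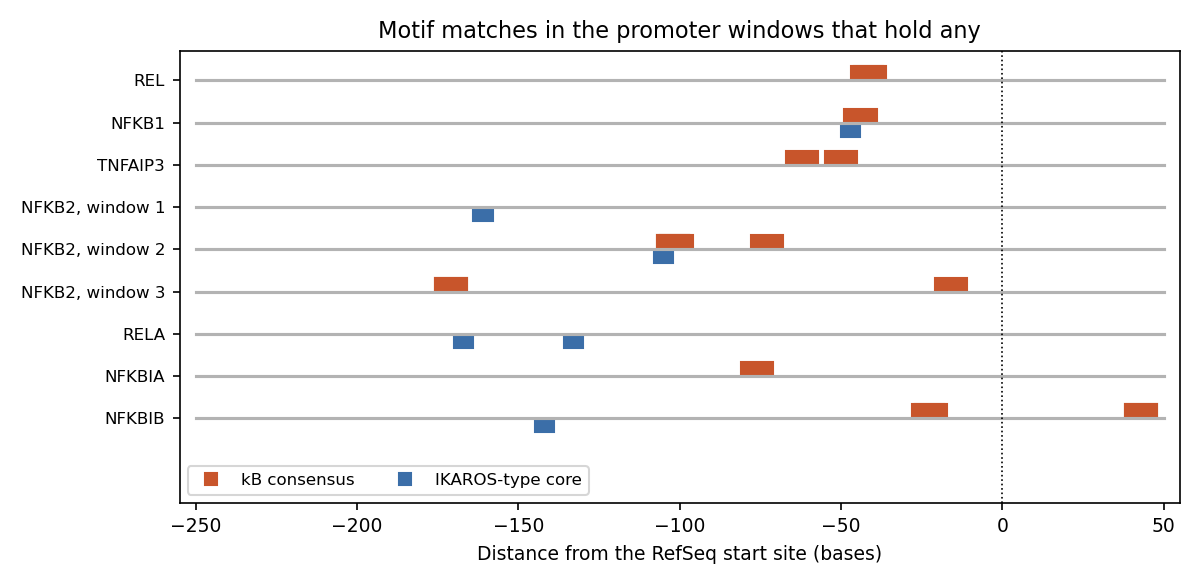
Positions of motif matches in the 9 RefSeq promoter windows that hold any, 250 bases before to 50 bases after each start site (x axis, bases; dotted line, start). Orange boxes are matches to the κB consensus and blue boxes matches to TGGGAA on either strand; in NFKB1 and in the second NFKB2 window both overlap.

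The 10 genes were then compared between the groups. Changes were tested with limma on log2(FPKM + 1) over the 12652 genes with a mean of at least 1 FPKM, and a gene is called when its adjusted p is under 0.05. TNFAIP3 rose and NFKB1 fell in the libraries labelled IK-KO, and the other 8 genes were not called. With 2 of 10 genes called, beside 19.9% of all tested genes, the share of calls among the NF-κB genes was that of the background. By direction, 1 was higher and 1 lower, where 10.1% and 9.75% of all tested genes were. For 5 of the 10 genes the library values of the groups were fully apart, 3 higher and 2 lower, beside 39.0% of all tested genes (20.9% higher, 18.1% lower). The median log2 difference of the 10 genes was 0.03, against 0.02 over all tested genes. All 10 passed the filter, RELB only through its level in the libraries labelled IK-KO. In such bulk samples, fewer cells that express a gene and less RNA per cell cannot be told apart.

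**Figure D2:**
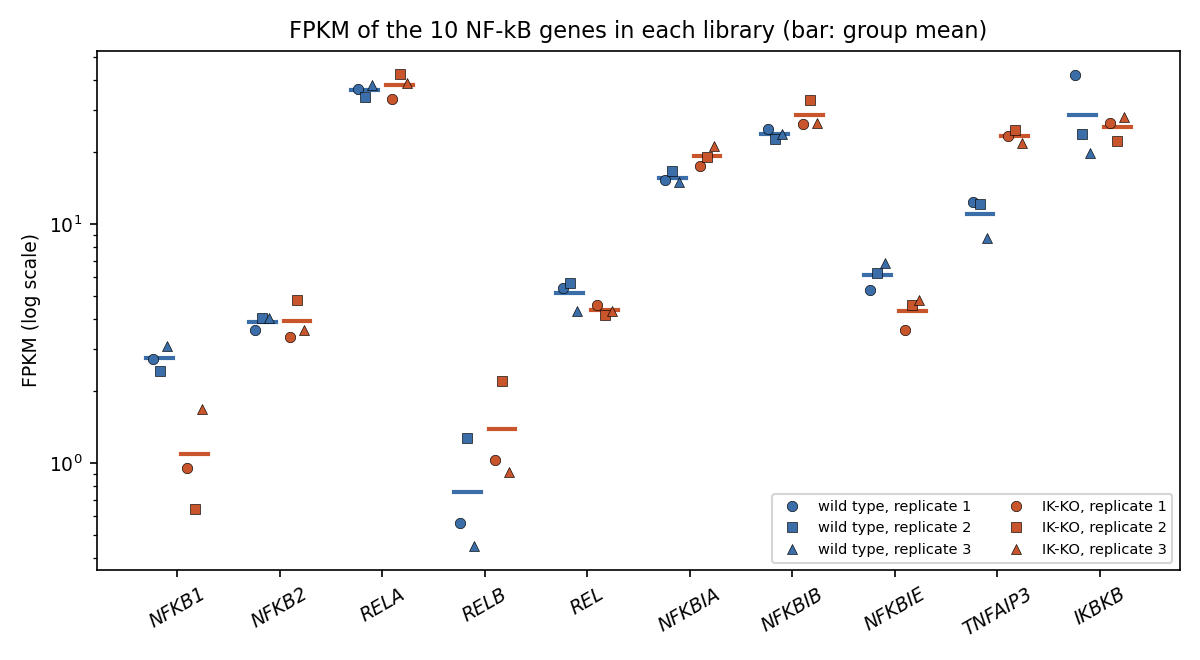
FPKM of each gene (y axis, log scale) in each of the 6 libraries, with symbols for the replicate and bars for the group mean. The groups are apart in NFKB1, NFKBIA, NFKBIB, NFKBIE and TNFAIP3 and overlap in the other 5 genes.

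The largest change was in TNFAIP3, which encodes A20, a ubiquitin-editing enzyme that ends NF-κB signalling (ENSG00000118503.15, chromosome 6, 137867214 to 137883312, GRCh38). It was at 12.4, 12.1 and 8.76 FPKM in wild type, against 23.3, 24.8 and 21.8 FPKM in IK-KO. Every IK-KO library lay above every wild type library, and the confidence bounds of IK-KO reached down to 19.2 FPKM while those of wild type reached up to 14.3 FPKM. TNFAIP3 was the one gene of the 10 whose bounds separated in this way. The mean rose from 11.1 ± 2.01 to 23.3 ± 1.52 FPKM (SD, n = 3), which is 2.11-fold on the FPKM scale and 1.02 on the log2(FPKM + 1) scale (SE 0.13, limma adjusted p 0.00243). It kept its call in every alternative with a test, at adjusted p from 0.00137 to 0.0180. The 50 tested genes nearest to TNFAIP3 on chromosome 6 had a median log2 difference of 0.01, with 14 of them called. Their quartiles were −0.27 and 0.24, so these neighbours differed in both directions. With that median removed, the difference of TNFAIP3 was 1.01. Over all 655 tested genes of chromosome 6 the median was 0.21.

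Among the subunits, NFKB1, the gene of p105 and p50, had lower levels in IK-KO (ENSG00000109320.13, chromosome 4, 102501331 to 102617302). It was at 2.72, 2.42 and 3.08 FPKM in wild type, against 0.954, 0.641 and 1.69 FPKM in IK-KO. The groups did not overlap, but the confidence bounds did, from 1.63 to 4.02 FPKM in wild type and from 0 to 2.58 FPKM in IK-KO. The widest of them spanned ± 108% of the value, so the size of the change is poorly resolved at this depth. The mean fell from 2.74 ± 0.332 to 1.09 ± 0.538 FPKM (SD, n = 3), a ratio of 0.399, with a log2 difference of −0.86 (SE 0.21, limma adjusted p 0.0276). The call was less firm than that of TNFAIP3. It was lost when any single library other than IK-KO replicate 3 was left out (limma adjusted p from 0.0594 to 0.0829 in those 5 fits) and without the filter on low values (0.0925), while the difference stayed between −1.34 and −0.70 in all alternatives. The 50 nearest genes on chromosome 4 had a median of 0.07, opposite in sign to NFKB1.

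RELA, the p65 subunit of the canonical dimer, was the most abundant of the 5 (chromosome 11, 65653597 to 65663090). It was at 37.0, 34.2 and 38.2 FPKM in wild type, against 33.4, 42.4 and 39.1 FPKM in IK-KO. The lowest and the highest of the 6 values were both in the libraries labelled IK-KO. The log2 difference was 0.06 with a 95% interval from −0.16 to 0.29 (limma adjusted p 0.688), and changes within that interval could not be resolved.

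NFKB2, whose p100 product is the inhibitor and precursor of the alternative pathway, was at 3.62, 4.04 and 4.04 FPKM in wild type, against 3.37, 4.81 and 3.603 FPKM in IK-KO (chromosome 10, 102394110 to 102402524). Its log2 difference was −0.00142, with a 95% interval from −0.33 to 0.33 (limma adjusted p 0.996). The groups overlapped fully. Within the precursor pair, NFKB1 was thus lower while NFKB2 had no detectable difference, though the difference between the 2 changes was not tested.

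REL, the c-Rel subunit that lymphocytes use after antigen receptor signals, was at 5.41, 5.68 and 4.32 FPKM in wild type, against 4.59, 4.16 and 4.32 FPKM in IK-KO (chromosome 2, 60881521 to 60931610). The log2 difference of −0.19 was not called (95% interval −0.47 to 0.09, limma adjusted p 0.320). Wild type replicate 3 lay inside the IK-KO range, and the other 2 wild type libraries were above it.

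RELB, the transactivating partner of p52, was the least abundant subunit in wild type (chromosome 19, 45001449 to 45038198). It was at 0.559, 1.27 and 0.447 FPKM in wild type, against 1.02, 2.21 and 0.915 FPKM in IK-KO, with replicate 2 the highest of each group. Its mean was 0.758 ± 0.444 and 1.38 ± 0.718 FPKM (SD, n = 3), and the log2 difference of 0.43 was not called (95% interval −0.23 to 1.08, limma adjusted p 0.332). The widest of its confidence bounds spanned ± 95.1% of the value, so a change in RELB is poorly resolved at this depth.

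The 3 IκB genes did not move in 1 direction. NFKBIA, the gene of IκBα, the main inhibitor of RELA dimers (chromosome 14, 35401511 to 35404749), was at 15.3, 16.6 and 15.1 FPKM in wild type, against 17.5, 19.1 and 21.2 FPKM in IK-KO. The groups did not overlap. The mean was 15.7 ± 0.848 and 19.3 ± 1.83 FPKM (SD, n = 3), and the log2 difference of 0.28 (SE 0.09) fell short of a call (limma adjusted p 0.0651, 95% interval 0.07 to 0.48). It was not called in any alternative (adjusted p 0.0564 to 0.169).

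NFKBIB, the gene of IκBβ, was the most abundant of the 3 (chromosome 19, 38899700 to 38908893). It was at 24.9, 22.7 and 23.9 FPKM in wild type, against 26.3, 33.1 and 26.6 FPKM in IK-KO. The groups did not overlap, with IK-KO replicate 2 well above the rest. The log2 difference was 0.25 (SE 0.10, limma adjusted p 0.125), and 0.14 without that library.

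NFKBIE, the gene of IκBε, which binds REL and RELA dimers, lay the other way (chromosome 6, 44258166 to 44265788). It was at 5.30, 6.25 and 6.85 FPKM in wild type, against 3.61, 4.57 and 4.80 FPKM in IK-KO, again with no overlap. NFKBIE differed by −0.42 on the log2 scale (SE 0.13), short of a call by limma (adjusted p 0.0694) and in every alternative with a test (adjusted p 0.0540 to 0.177). Its chromosomal surroundings differed in the opposite direction. The 50 nearest tested genes had a median log2 difference of 0.27, 23 of them were called, and NFKBIE lay 0.69 below that median. Over all 655 tested genes of chromosome 6 the median was 0.21.

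IKBKB, the gene of the IKK2 kinase that phosphorylates IκB, could not be resolved (chromosome 8, 42271302 to 42332653). Wild type libraries were at 42.3, 24.0 and 19.8 FPKM and IK-KO libraries at 26.4, 22.2 and 28.2 FPKM. Wild type replicate 1 lay far above the others, and its confidence bounds ran from 21.8 to 62.9 FPKM. The log2 difference was −0.09 (95% interval −0.69 to 0.51, limma adjusted p 0.847), and it was 0.22 without that library.

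**Figure D3:**
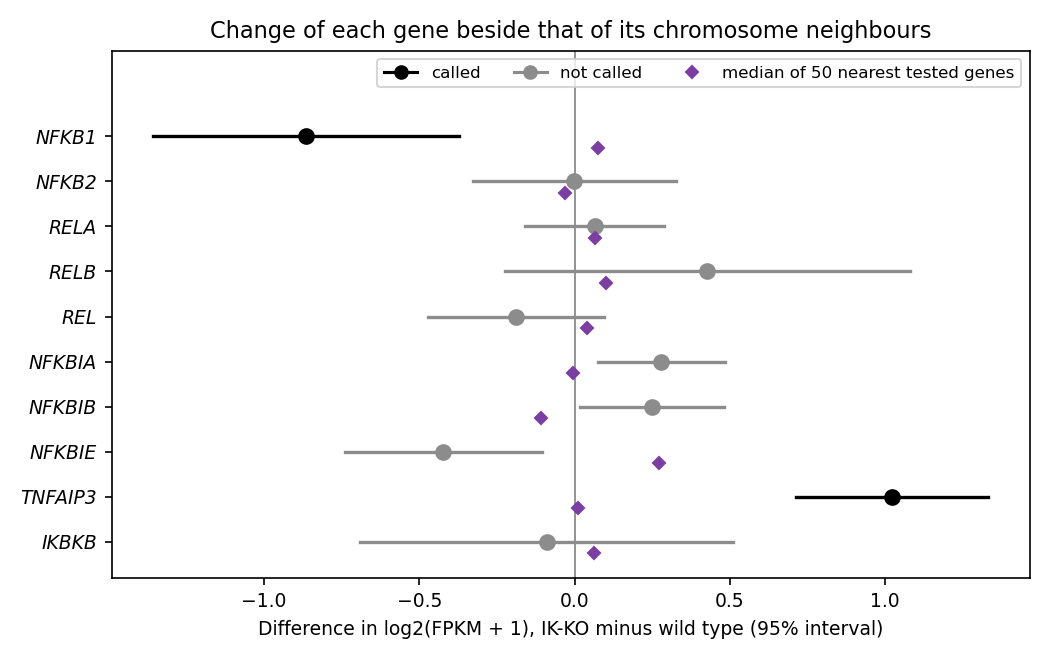
Difference in log2(FPKM + 1) between the libraries labelled IK-KO and wild type (x axis) for each gene, with its 95% limma interval. Black marks the 2 called genes, grey the 8 not called, and purple diamonds the median difference of the 50 nearest tested genes, which was 0.27 beside −0.42 for NFKBIE.

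The levels were also ranked, since FPKM is scaled for length. In wild type, mean FPKM fell in the order RELA, IKBKB, NFKBIB, NFKBIA, TNFAIP3, NFKBIE, REL, NFKB2, NFKB1 and RELB. The ranges of RELA and IKBKB, of IKBKB and NFKBIB, and of NFKBIE and REL overlapped, and those of the other neighbours did not. In the libraries labelled IK-KO, TNFAIP3 stood above NFKBIA without overlap, whereas it stood below it in wild type. Its level over that of NFKBIA was 0.705 ± 0.114 in wild type and 1.22 ± 0.166 in IK-KO (SD, n = 3). NFKB1 was last in IK-KO, with a range that overlapped that of RELB.

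The make-up of the subunit pool was then described from summed FPKM, without a test. The 5 subunits summed to 49.3, 47.6 and 50.1 FPKM in wild type and to 43.3, 54.3 and 49.6 FPKM in IK-KO, and the groups overlapped. RELA held 74.4% ± 2.30 of that sum in wild type and 78.0% ± 0.876 in IK-KO (SD, n = 3). NFKB1 held 5.52%, 5.09% and 6.16% in wild type and 2.203%, 1.18% and 3.40% in IK-KO. RELA FPKM was 13.4 ± 0.880 times that of NFKB1 in wild type and 41.4 ± 22.2 times in IK-KO (SD, n = 3), with the spread set by the low NFKB1 values.

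The 3 IκB genes summed to 45.6, 45.6 and 45.8 FPKM in wild type and to 47.4, 56.8 and 52.6 FPKM in IK-KO. Divided by the subunit sum of the same library, this gave 0.925, 0.959 and 0.914 in wild type and 1.10, 1.05 and 1.06 in IK-KO, with no overlap. The share of NFKBIE in the IκB sum was 13.4% ± 1.68 in wild type and 8.26% ± 0.776 in IK-KO (SD, n = 3), also without overlap. These are ratios of RNA levels and do not measure protein.

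**Figure D4:**
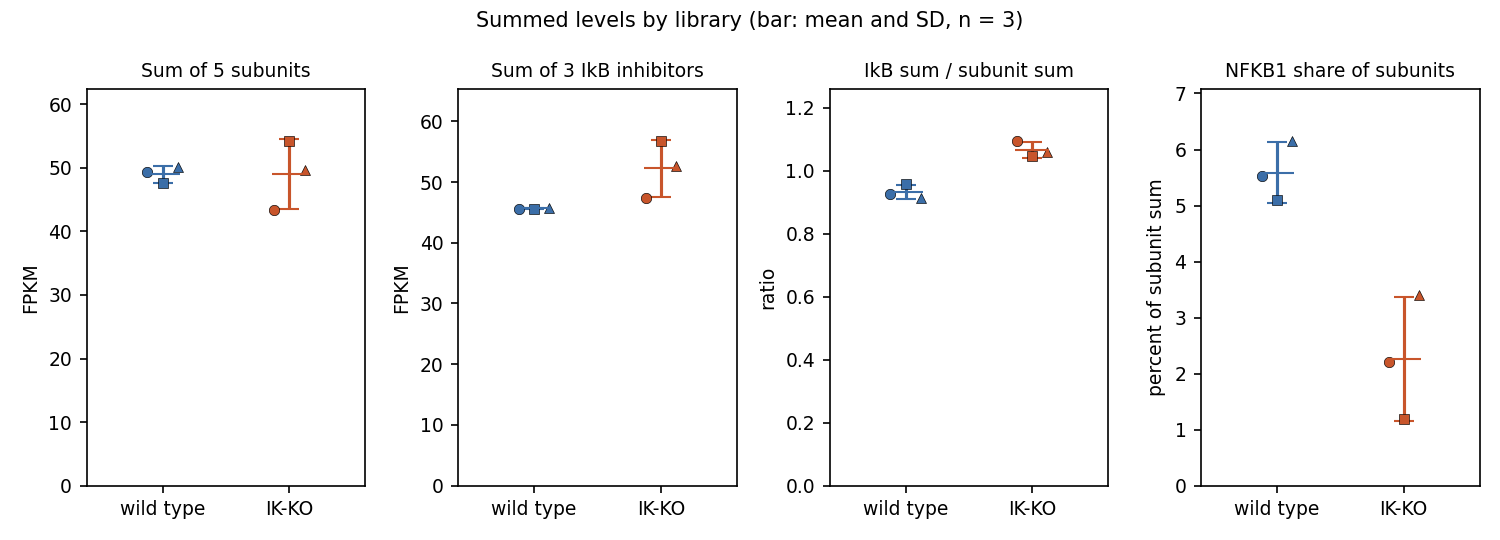
Summed FPKM of the 5 subunits and of the 3 IκB genes, their ratio, and the share of NFKB1 in the subunit sum, in each library (points; circle, square and triangle are replicates 1 to 3), with the mean and SD (n = 3). The subunit sums overlap, while the ratio lies at 0.914 to 0.959 in wild type and at 1.05 to 1.10 in IK-KO.

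The rest of the pathway was taken from 7 lists that hold 145 further genes. Of these, 77 passed the filter and 23 were called, 10 higher and 13 lower, which is 29.9% beside 19.9% of all tested genes. Between lists the counts differed, and 11 of the 23 calls lay in the list of target genes, where 57.9% of tested genes were called. The share was 24% among TRAF, IAP and ubiquitin regulators and 20% among receptors and adaptors, near the 19.9%. It was 16.7% among atypical IκB proteins and nuclear modulators, and 66.7% among ligands, with 3 tested. The higher share of the lists together thus came mainly from the target genes. All lists were written with earlier results of these data known, and no share was tested. Of the 9 tested genes of the IKK complex and its upstream kinases none was called by limma (2 at an unadjusted p under 0.05), and no alternative called any. CHUK, the IKK1 kinase, was at 18.1 ± 2.13 and 17.7 ± 0.827 FPKM and IKBKG, the scaffold NEMO, at 10.4 ± 0.407 and 10.4 ± 0.907 FPKM in wild type and IK-KO (SD, n = 3). IKBKG shares sequence with its pseudogene IKBKGP1, so its fragments may have been divided between them. MAP3K14, the NIK kinase of the alternative pathway, had a log2 difference of 0.20 (limma adjusted p 0.395).

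In the arm that links antigen receptors to IKK, the adaptor BCL10 (log2 difference 0.21, limma adjusted p 0.448) and the paracaspase MALT1 (−0.12, adjusted p 0.599) were not called.

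Of the 10 tested receptors and adaptors, 2 were called, which is 20% beside 19.9% of all tested genes. CD28, the T-cell costimulatory receptor, was at 6.91, 6.17 and 5.50 FPKM in wild type, against 0.169, 0.288 and 0.350 FPKM in IK-KO (log2 difference −2.50, SE 0.14, limma adjusted p 1.00e-04). It passed the filter only through wild type. TNFRSF1A, a receptor of TNF, rose from 28.6 ± 2.26 to 39.1 ± 3.004 FPKM (SD, n = 3; log2 difference 0.44, limma adjusted p 0.0108). Of the 36 genes listed, 35 were in the tables, and 9 of these, such as CD40 and LTBR, were listed at 0 in all 6 libraries.

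Of the 13 ligands, 3 were tested and 2 fell. CD70, the ligand of CD27, fell from 6.45 ± 0.280 to 2.41 ± 0.511 FPKM (log2 difference −1.14, limma adjusted p 0.00168). LTB, the lymphotoxin beta chain, fell from 11.8 ± 0.807 to 6.79 ± 1.21 FPKM (SD, n = 3; log2 difference −0.72, limma adjusted p 0.00758). With 3 genes tested, the list says little beyond these genes.

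Among 25 tested TRAF, IAP and ubiquitin regulators, 3 rose, 3 fell and 19 were not called. The share called was 24%, beside 19.9% of all tested genes. CYLD, a deubiquitinase that limits NF-κB signalling as A20 does, fell from 11.6 ± 2.08 to 5.61 ± 0.725 FPKM (log2 difference −0.93, limma adjusted p 0.00493), opposite to TNFAIP3. TRAF5 and TRAF2, adaptors of TNF-family receptors, fell by 0.76 and 0.52 on the log2 scale (limma adjusted p 0.0129 and 0.00515). TRAF2 lies on chromosome 9, where the median of the 469 tested genes was −0.35. CUL1 and SKP1, core subunits of the ubiquitin ligase that marks IκB for degradation, rose by 0.69 and 0.48 (limma adjusted p 0.000487 and 0.00604), as did USP18, a deISGylase, by 0.35 (adjusted p 0.0204). The call of TRAF5 was lost without wild type replicate 2 or 3, and that of USP18 when replicate 2 of either group or IK-KO replicate 3 was left out.

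Of the 8 genes listed as atypical IκB proteins and nuclear modulators, which include the pseudogene IKBKGP1, 6 were tested and 1 was called. The share was 16.7%, beside 19.9% of all tested genes. PDLIM2, a ligase that acts on nuclear RELA, fell from 9.61 ± 1.05 to 5.95 ± 0.820 FPKM (SD, n = 3; log2 difference −0.61, limma adjusted p 0.0142), a call that was lost without wild type replicate 2. BCL3, a nuclear IκB protein, was listed at 0 in 4 libraries, at 0.283 FPKM in wild type replicate 3 and at 0.0521 FPKM in IK-KO replicate 3, and was not tested.

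Textbook NF-κB target genes changed in both directions. Of 42 listed genes, 14 were listed at 0 in every library and 19 were tested. Among the 19, 1 (IL2) passed the filter only through its level in wild type. Of the 19 tested genes, 6 rose and 5 fell, with a median log2 difference of 0.07. The share called was 57.9%, beside 19.9% of all tested genes. In 16 of the 19 the groups were fully apart, beside 39.0% of all tested genes. The list was written with earlier results of these data known, and the share was not tested. IER3, an early response gene, rose from 2.87 ± 0.629 to 5.61 ± 0.829 FPKM. SOD2, the mitochondrial superoxide dismutase, rose from 43.9 ± 7.75 to 65.1 ± 1.70 FPKM, and JUNB, an AP-1 subunit, from 9.72 ± 1.33 to 14.2 ± 1.82 FPKM (SD, n = 3). The 3 rises were 0.78, 0.57 and 0.50 on the log2 scale (limma adjusted p 0.0156, 0.0141 and 0.0343). IER3 and SOD2 lie on chromosome 6, where the median log2 difference of the 655 tested genes was 0.21. JUNB lies on chromosome 19, where the median was 0.04.

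The 3 falls named here included a cytokine, an adhesion receptor and a ubiquitin ligase. IL2, the T-cell growth factor, was at 3.70, 3.23 and 3.08 FPKM in wild type, against 0.684, 0.713 and 0.556 FPKM in IK-KO (log2 difference −1.39, limma adjusted p 0.000854), and passed the filter only through wild type. CD44, an adhesion receptor, fell from 42.7 ± 3.71 to 21.9 ± 1.74 FPKM (log2 difference −0.93, limma adjusted p 0.000628), and BIRC3, the cIAP2 ligase, from 4.90 ± 0.439 to 3.23 ± 0.397 FPKM (SD, n = 3; −0.48, adjusted p 0.0328).

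The count of 11 called targets depended on single libraries. It was 8 without IK-KO replicate 1. In the other 5 fits it was 4 without wild type replicate 1, 4 without wild type replicate 2 and 6 without wild type replicate 3. It was 3 without IK-KO replicate 2 and 5 without IK-KO replicate 3. BIRC3 and JUNB lost their calls in each of these 5 fits, SOD2 when replicate 2 of either group or IK-KO replicate 1 was left out, and IER3 without IK-KO replicate 2. IL2 and CD44 kept theirs throughout, though IL2 passed the filter only through wild type. Over all 12652 tested genes the count also fell, from 2515 to between 1692 and 2004, when single libraries were left out. Without IK-KO replicate 2 it was 1719 genes, beside 3 of the 19 tested targets. In that fit the share of called targets was near that of all tested genes. The plot of the lists shows the called genes of the pathway on both sides of 0.

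**Figure D5:**
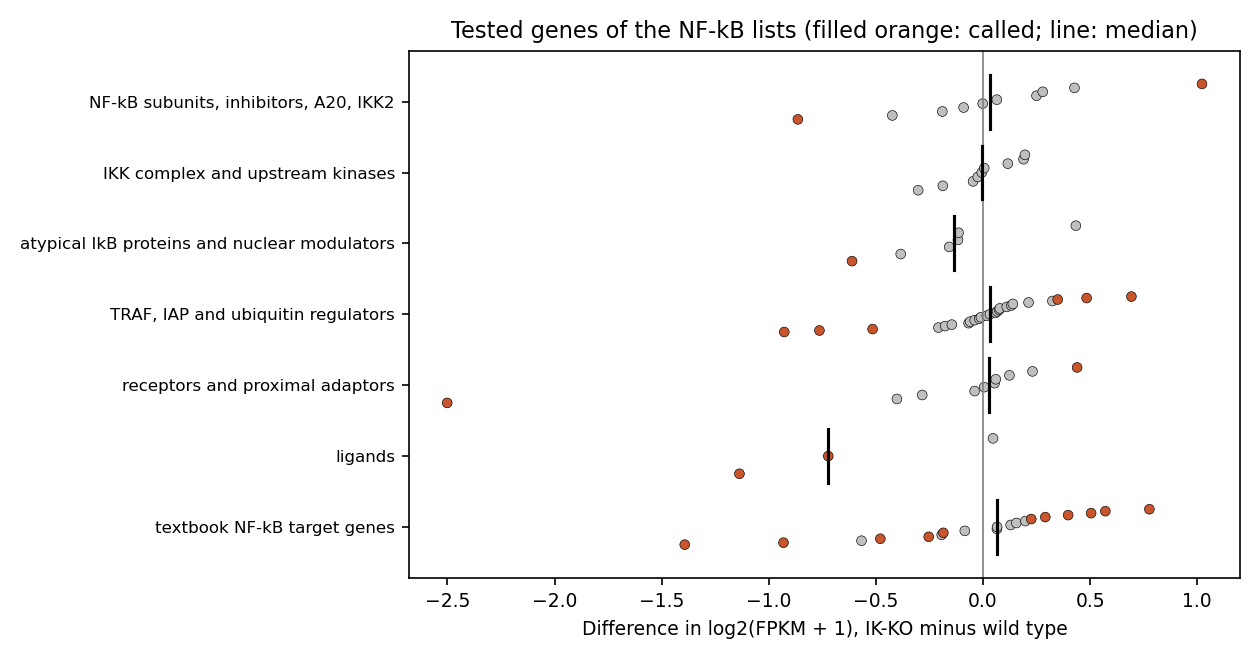
Difference in log2(FPKM + 1) between the libraries labelled IK-KO and wild type (x axis) for each tested gene of the NF-κB core and of 6 pathway lists. Orange points are called, grey points are not, and the line is the list median, which lies at 0.03 for the 10 core genes and at 0.07 for the target genes.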

How the data were processed

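PolyA RNA-seq of 6 MOLT-4 libraries, 3 wild type and 3 IK-KO, was analysed, with groups and replicate numbers taken from the sample titles. The deposited values are FPKM, which the authors scaled for transcript length and library depth, with confidence bounds and an estimation status per row. The submitters' processing notes name STAR 2.6.1c, Cufflinks 2.2.1, HOMER 4.10 and hg38. The annotation and strand setting are not given in the sources used here, so overlapping and antisense genes are uncertain. All 49727 identifiers compared with GENCODE release 44 lay at the same position on GRCh38, and coordinates are counted from 1.

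Rows of 1 identifier were summed, and 29 genes not estimated in a library were left out. Differences were tested with limma 3.58.1 in R 4.3.3 on log2(FPKM + 1) over genes with a mean of at least 1 FPKM (eBayes with a trend, two-sided, Benjamini-Hochberg adjustment over 12652 genes). A change on this scale understates that of low genes. The labels do not say whether replicates are separate cultures, so p-values measure the spread between these libraries, which may be technical. The fit was tested on simulated data. The 10 genes and all lists were chosen with earlier results of these data known. Genes named outside the 10 are IKZF1, the 3 largest called rises and falls of each list, and CHUK, IKBKG, MAP3K14, BCL10, MALT1, BIRC3 and BCL3. A single further gene that this rule names is not reported here. CD3E, LCK, RAG1, CD4, CD1A, IKBKGP1, CD40, LTBR, TNF and LTA were named after their values were seen. Where a symbol had several identifiers (SOD2), the one with the highest mean was used. Alternatives were another pseudocount, filter, scaling or variance model, a replicate block, and leaving out each library.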

Additional observations from a re-analysis of the deposited data

How the results depend on the processing

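The count of called genes was 2515 and lay between 1692 and 2802 in the 15 alternatives with a test, none beyond 1.5 times. Of the 10 NF-κB genes, 2 were called, 1 without the filter on low values, and 1 to 2 when single libraries were left out. NFKB1 was at −0.86 without the filter (no longer called, with 27286 genes adjusted over) and from −1.06 to −0.70 without single libraries. The sign of genes near 0 turned: NFKB2 was 0.018 under quantile normalization and −0.13 to 0.080 without single libraries, RELA −0.011 to 0.16, IKBKB −0.31 to 0.22, CHUK −0.10 to 0.059, and IKBKG 0.012 under quantile normalization and −0.070 to 0.034 without single libraries. NFKBIE was −0.69 with its neighbours' median removed. The cause of these shifts was not tested. The 7 pathway lists held 23 calls, and 14 to 20 without single libraries. The target gene list had 11, against 4 without the filter and 5 under the replicate block. For the other named genes, 311 values kept their side of the threshold and direction, 28 lost the call and 6 changed sign.

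The numbering of the replicates gave no pairing, since the deviations from the group means of libraries with the same number correlated at 0.0669, 0.0248 and 0.00546 across genes, and not every library correlated best with its own number. With the replicate block, 1805 genes were called. TNFAIP3 and NFKB1 stayed called, while USP18 and BIRC3 lost their calls (limma adjusted p 0.0588 and 0.0554). An FPKM below 1 rests on few fragments in short transcripts, so low genes such as RELB and, in IK-KO, NFKB1 are limited by depth.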

Other observations

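Below the filter, the cytokine genes TNF and LTA of the TNF locus on chromosome 6 were low and were not tested. LTB, at the same locus, was tested and fell, as given above. TNF was at 0.324, 0.433 and 0.495 FPKM in wild type and was listed at 0 in IK-KO replicates 1 and 2 and at 0.178 FPKM in replicate 3. LTA was at 0.208, 0.238 and 0.408 FPKM in wild type, against 0, 0.233 and 0.190 FPKM in IK-KO, so its groups overlapped.

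The order of the libraries within each group varied across the 10 NF-κB genes. IK-KO replicate 2 had the highest value of its group in 5 of the 10 genes (NFKB2, RELA, RELB, NFKBIB and TNFAIP3) and the lowest in 3 (NFKB1, REL and IKBKB). IK-KO replicate 1 and wild type replicate 3 were each the lowest of their group in 5 genes.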
